A study of Mus musculus with 4 samples.

Results

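The genes described here make, lengthen, desaturate, assemble and take up fatty acids. They were 32 genes chosen by name for these roles, and all 32 were found among the 22672 named entries of a count table from mouse T cells. RNA-seq libraries (TruSeq mRNA, total RNA) were made from splenic T cells of Pmel mice, whose transgenic T cell receptor recognises a peptide of gp100, a protein of pigment cells. Of the 4 libraries, 2 were labelled WT control and 2 came from Pmel mice deficient in sphingosine kinase-1, labelled SphK1 -/-, and both groups therefore carried the same receptor transgene. All cells had been cultured for 72 h with the cognate peptide at 1 µg/ml and IL-2 at 100 U/ml. The cells were activated bulk cultures, and the labels do not say how many animals they came from, whether animals were pooled, or which part of the kinase gene is deleted. The p-values therefore measure only the spread between these libraries, which may be technical.

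Fatty acid synthesis begins when mitochondrial citrate is exported to the cytosol and split to acetyl-CoA, which acetyl-CoA carboxylase turns into malonyl-CoA and fatty acid synthase builds into palmitate. Elongases of the ELOVL family lengthen the chain, stearoyl-CoA desaturases and the FADS enzymes put in double bonds, and acyltransferases and lipins attach the products to glycerol. The transcription factor SREBP-1, encoded by Srebf1, drives many of these genes, and activated T cells use the pathway to build membranes as they divide, alongside uptake of fatty acids and lipoproteins from the medium.

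In the libraries labelled SphK1 -/-, 4 of the 28 members that could be tested were lower than in control and 2 were higher (edgeR quasi-likelihood test, Benjamini-Hochberg adjusted p under 0.05 over all 12758 genes tested). The lower ones were Fads2 and Scd1, both desaturases, Acss2, which makes acetyl-CoA from acetate, and Vldlr, a lipoprotein receptor. The higher ones were Acaca, the cytosolic acetyl-CoA carboxylase, and Fabp5, a fatty acid binding protein, and both share much of their sequence with processed pseudogenes. Over all genes tested, 6% were higher and 0.752% were lower, 6.75% together. All 5 desaturases lay lower in both libraries labelled SphK1 -/- than in either control library, as did 23.8% of all genes tested. All 5 tested genes of glycerolipid assembly overlapped between the groups, while a further 21% of all genes lay above control without overlap. These are levels in bulk RNA, in which fewer cells of a type and less RNA per cell cannot be told apart.

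Library totals were 44277592 and 46449606 counts in control and 50538355 and 53640611 in the libraries labelled SphK1 -/-. Totals of named entries were 43642723, 45760330, 50406140 and 53500852. CPM values are counts scaled to the totals of the 12758 genes tested times a TMM factor (trimmed mean of M values). On this scale 3 counts corresponded to 0.0598 to 0.0639 CPM. Sphk1, the gene named by the genotype, went against the labels, with 2 and 4 counts in control and 35 and 18 in the libraries labelled SphK1 -/- (log2 fold change 3.12 ± 0.66 SE, adjusted p = 0.0233). The label is therefore kept as a label throughout, and every direction below is relative to it. Cytoplasmic ribosomal protein genes were picked by a name of Rpl or Rps before a digit, a pattern that is not exact. They took 2.57% to 2.66% of named counts in control and 9.63% to 10.3% in the libraries labelled SphK1 -/-. Scaling factors were 1.08 and 1.10 against 0.93 and 0.91. Scaling by library totals alone, in which the median of all genes was -0.26 on the log2 scale, gave the members a median of -0.44. Markers of T cells (Cd3d, Cd3e and Cd3g) and of their cytotoxic lineage (Cd8a and Cd8b1) were abundant throughout, all 5 detected in every library. Together they summed to 2455 and 2644 CPM in control and 2351 and 2406 CPM in the libraries labelled SphK1 -/-. Cd3d, Cd3e, Cd3g and Cd8b1 lay below control without overlap, as did 23.8% of all genes tested. Their log2 fold changes were -0.17, -0.20, -0.17 and -0.22, and none was called. Cd8a overlapped between the groups (log2 fold change 0.08).

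Together the 32 members summed to 5888 and 6200 CPM in control and 4854 and 5031 CPM in the libraries labelled SphK1 -/-. Scd2 alone supplied 50.3% and 50.2% of the members' counts in control and 45.6% and 46.6% in the other group. Without Scd2 the sums were 2928 and 3087 CPM against 2639 and 2685 CPM, so the groups did not overlap with or without it. The median log2 fold change of the 28 tested members was -0.21, beside -0.02 for all genes tested, and 25 of 28 members had a negative value, beside 53.8% of all genes. Both libraries labelled SphK1 -/- lay below both control libraries for 17 members and above them for 2, beside 23.8% and 21% of all genes. Of the 22 members not past the threshold, 18 had a 95% interval that lay within a 2-fold change either way, which is 1 unit of log2.

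**Figure D1:**
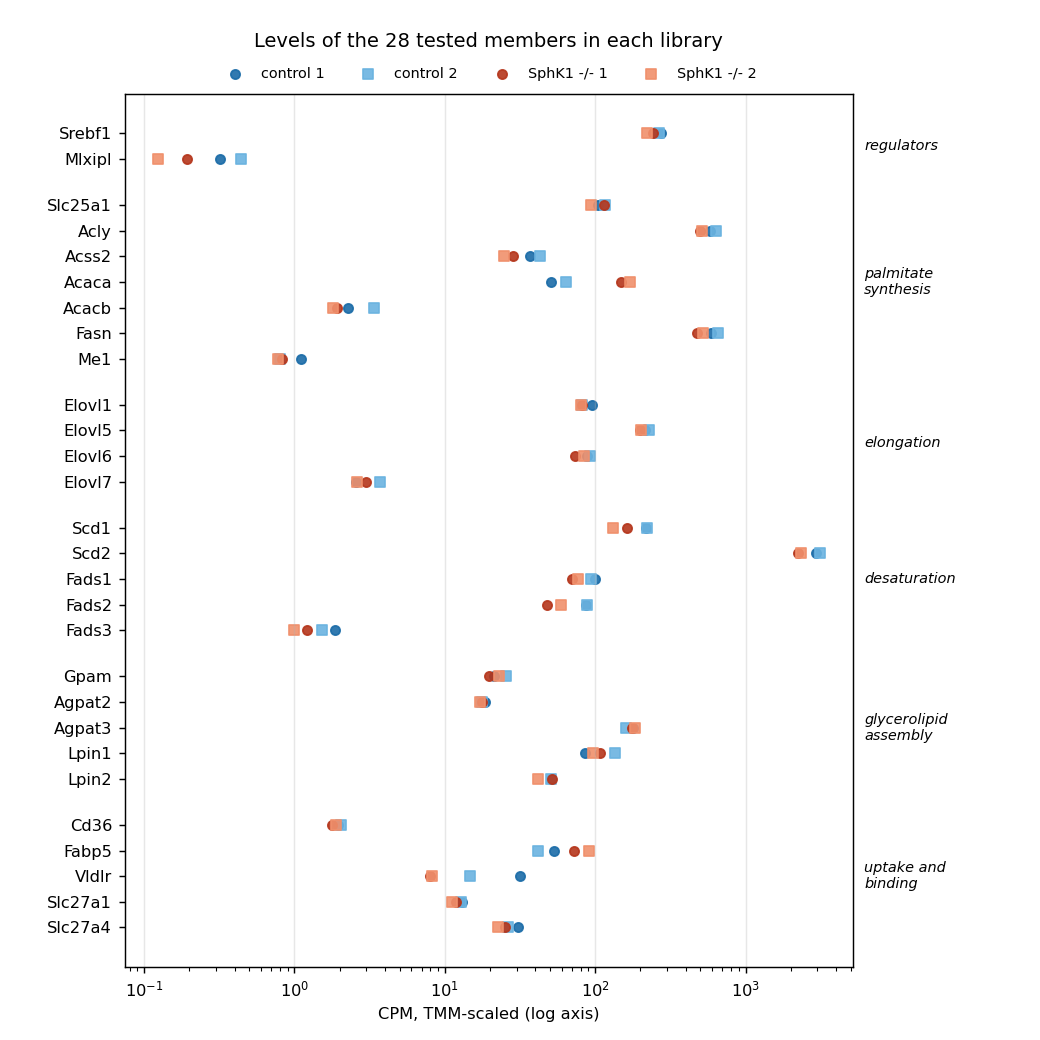
Level of each of the 28 tested members in each of the 4 libraries, in TMM-scaled CPM on a log axis, grouped by role; blue symbols are control and red symbols are SphK1 -/- as labelled. Scd2 lies farthest right, between 2216 and 3112 CPM, and red and blue points stand apart most clearly for Acaca and Vldlr.

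**Figure D2:**
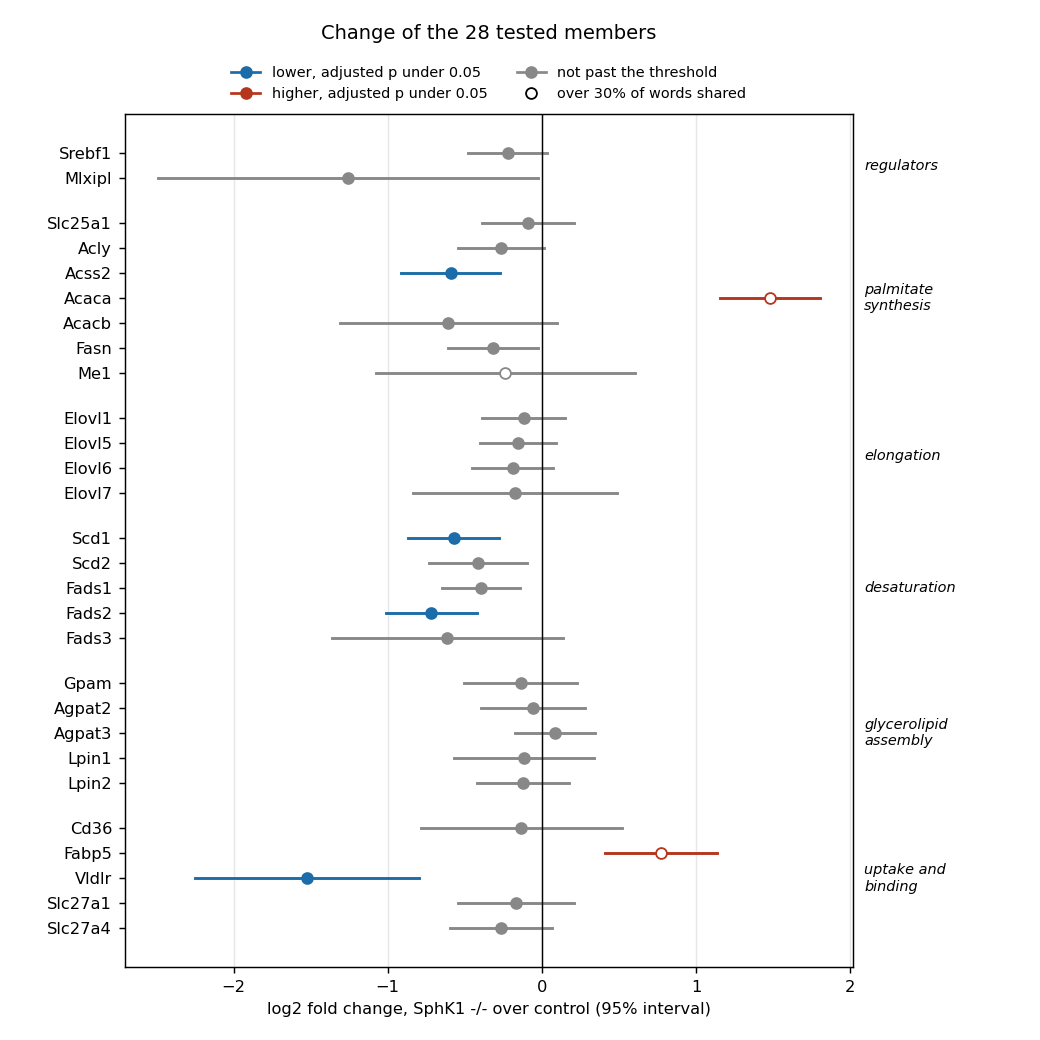
Log2 fold change of each tested member, SphK1 -/- over control, with its 95% interval, grouped by role; blue and red mark adjusted p under 0.05, and open circles mark genes that share over 30% of their 30-base words with other genes. All 5 desaturases lie left of 0, and both red points, Acaca and Fabp5, are open circles.

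Srebf1, on chromosome 11, encodes SREBP-1, the membrane-bound factor that is cleaved and moves to the nucleus to drive lipogenic genes. It was read at 273.5 and 264.8 CPM in control and 241.1 and 220.8 CPM in the libraries labelled SphK1 -/-. The groups did not overlap, but the difference was small and not past the threshold (log2 fold change -0.22 ± 0.11 SE, adjusted p = 0.436). It passed with edgeR on library totals alone (adjusted p = 0.0361). Set against Srebf2, which encodes the sterol-directed relative SREBP-2, Srebf1 counts were 0.441 and 0.416 of Srebf2 counts in control and 0.408 and 0.407 in the other group. Mlxipl encodes ChREBP, the carbohydrate-responsive regulator, and was nearly silent, with 15 and 22 counts in control and 9 and 6 in the libraries labelled SphK1 -/- (log2 fold change -1.26 ± 0.54 SE, adjusted p = 0.32). Thrsp, a lipogenic regulator of liver and fat, had 1 count in control 1 and none elsewhere, which was below the limit for testing.

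Slc25a1, the mitochondrial citrate carrier, overlapped between the groups (103.8, 116.9, 113.6 and 94.0 CPM in control 1, control 2, SphK1 -/- 1 and SphK1 -/- 2; values in series below keep this order). Acly, which splits citrate to acetyl-CoA in the cytosol, stood at 578.1, 639.0, 496.2 and 515.5 CPM. Fasn, the synthase that makes palmitate, stood at 588.2, 658.8, 478.3 and 522.5 CPM. Both were lower in each library labelled SphK1 -/- than in either control library, yet neither passed the threshold (Acly -0.27 ± 0.12 SE, adjusted p = 0.367, and Fasn -0.32 ± 0.13 SE, adjusted p = 0.275). With edgeR on library totals alone both passed (Acly adjusted p = 0.0347, Fasn 0.0299). Fasn and Acly kept nearly the same proportion in every library, with 1.02, 1.03, 0.964 and 1.01 Fasn counts for each Acly count.

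Acss2, on chromosome 2 (GRCm38 chr2:155517948-155585724, plus strand), encodes the acetyl-CoA synthetase that lets cells use acetate for lipid and histone acetylation. Its level was 37.1 and 43.0 CPM in control and 28.4 and 24.8 CPM in the libraries labelled SphK1 -/-, without overlap. Acss2 fell by 33.6% (log2 fold change -0.59 ± 0.14 SE, adjusted p = 0.0398). The fall was larger than that of Acly, since Acss2 counts were 0.0642 and 0.0673 of Acly counts in control and 0.0572 and 0.0480 in the other group, a difference that was not tested. Neighbouring genes overlap 11.3% of its exonic bases, so that reads there may be counted for either gene. Leaving out control 2 (adjusted p = 0.107), SphK1 -/- 1 (0.0528) or SphK1 -/- 2 (0.211), or raising the minimum count to 50 (0.0525), ended the call, within a range of 0.00636 to 0.211 over 13 alternatives.

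Acaca, on chromosome 11 (chr11:84129672-84401651, plus strand), encodes the carboxylase that makes malonyl-CoA, the committed step of fatty acid synthesis. It was counted 2391 and 3191 times in control and 6990 and 8290 times in the libraries labelled SphK1 -/-, or 50.9, 63.6, 148.7 and 170.7 CPM. The libraries labelled SphK1 -/- stood far above control, and Acaca rose 2.79-fold (log2 fold change 1.48 ± 0.14 SE, adjusted p = 0.000165), a call that held under all 13 alternatives in which it could be tested. Relative to Fasn, the next enzyme of the pathway, Acaca counts went from 0.0865 and 0.0965 to 0.311 and 0.327. No other gene of palmitate synthesis rose.

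The Acaca value is uncertain, because 57.1% of its 30-base words, the overlapping 30-base stretches of its annotated transcripts, also occur in Gm5182, a processed pseudogene on chromosome 12 (chr12:10152142-10158233). Over 6088 aligned bases, covering 86.5% of the coding sequence, transcript Acaca-202 and Gm5182 differ at 20 bases and are 99.7% identical. The 90-base stretch below, from coding bases 1209 to 1298 of Acaca and bases 289 to 378 of Gm5182 (both GENCODE M21), shows how little separates them: the capital marks the 1 base that differs, so a read that misses it fits both.
Acaca: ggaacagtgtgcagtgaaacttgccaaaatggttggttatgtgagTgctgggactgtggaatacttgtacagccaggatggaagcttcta
Gm5182: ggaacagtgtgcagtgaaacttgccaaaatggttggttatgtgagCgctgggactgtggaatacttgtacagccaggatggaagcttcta

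The sources used here do not say how reads that fit several places were counted. Gm5182 itself was not analysed here. Among the 611 tested genes that share over 30% of their words, 55.5% were called higher, beside 0.953% of the 6086 that share none. The median log2 fold change was 1.03 in the former and -0.06 in the latter. In the former class were 3 members, Acaca, Me1 and Fabp5, of which Acaca and Fabp5 were called higher. The part of this dependence in the Acaca and Fabp5 values was not tested. In a fit of single-copy genes, those that share at most 5% of their words and have at most 10% of their exonic bases under another gene, 0.612% of 8993 genes were higher and 0.1% were lower, and none of the 22 members in it, Lpl now among them, passed the threshold with edgeR. Of these 22 members, 3 (Fads1, Fads2 and Vldlr) had an unadjusted p under 0.05, none passed with limma-voom, and DESeq2 on the same genes called Fads2 and Vldlr. In that fit 20 of 22 members had a negative log2 fold change, beside 50.4% of its genes.

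**Figure D3:**
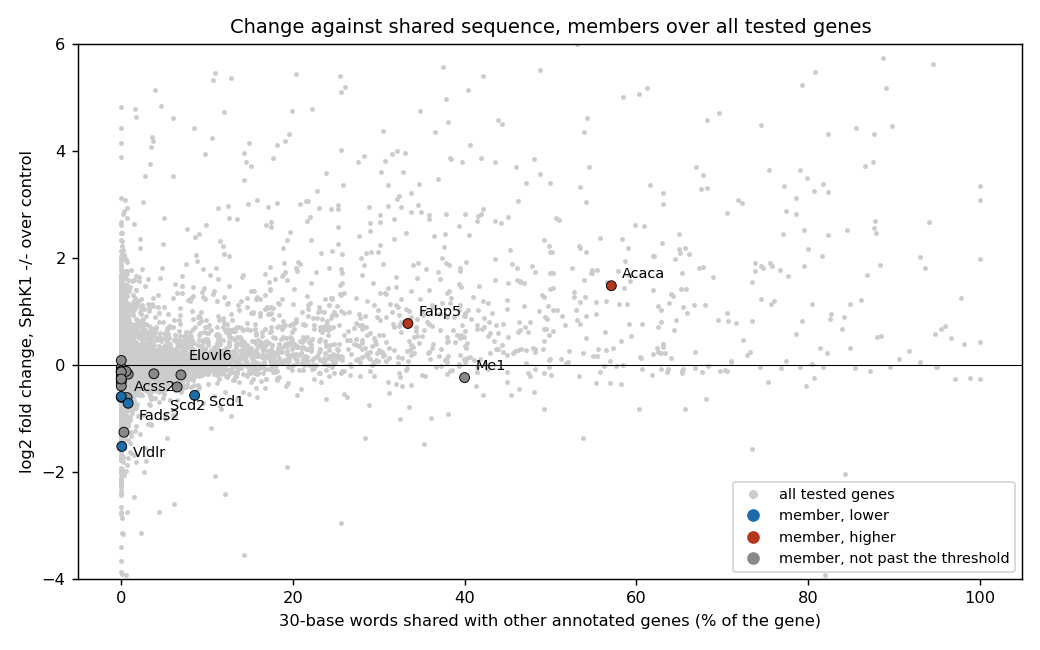
Log2 fold change, SphK1 -/- over control, against the share of a gene's 30-base words that occur in other annotated genes (%); grey points are the 12678 tested genes with an annotation, of which 103 lie outside the axis range of -4 to 6, and larger points are the members. Acaca (57.1%) and Fabp5 (33.4%) lie among genes whose values are mostly above 0, and the members called lower lie at under 10%.

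Acacb encodes the mitochondrial carboxylase, whose malonyl-CoA restrains fatty acid oxidation. It was low, at 106, 170, 90 and 87 counts, and did not pass the threshold (-0.61 ± 0.31 SE, adjusted p = 0.431). Per exonic base, it was read at 0.0480 and 0.0577 of the level of Acaca in control and at 0.0139 and 0.0114 in the other group, a ratio that carries the uncertainty of Acaca. Me1, the cytosolic malic enzyme that supplies NADPH, was lower still, at 52, 40, 39 and 38 counts, overlapped between the groups and shares 40% of its words with other genes.

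The 4 elongases had a median log2 fold change of -0.16. With edgeR and TMM scaling none was called or had an unadjusted p under 0.05, and none passed with DESeq2 or limma-voom. With library totals alone, edgeR called Elovl5 (-0.39, adjusted p = 0.0432) and Elovl6 (-0.43, adjusted p = 0.0402) lower. Elovl5, which extends polyunsaturated chains, stood at 215.8, 227.9, 198.6 and 200.3 CPM (-0.15 ± 0.11 SE, adjusted p = 0.597). Elovl6, which takes palmitate to stearate, stood at 88.4, 91.8, 73.7 and 84.5 CPM (-0.19 ± 0.12 SE, adjusted p = 0.534). For both, the libraries labelled SphK1 -/- lay below control. Elovl1, which extends saturated very long chains, had a log2 fold change of -0.12 (95% interval -0.39 to 0.15) and Elovl7 one of -0.17 (-0.83 to 0.49), and both overlapped between the groups. All 4 intervals lay within a 2-fold change either way.

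The desaturases had the lowest median of the roles with more than 2 tested genes (-0.57, range -0.72 to -0.40). Fads2, the delta-6 desaturase that opens the synthesis of long polyunsaturated fatty acids, lies on chromosome 19 (chr19:10062765-10101746, minus strand). Its level was 87.5 and 87.8 CPM in control and 47.7 and 59.0 CPM in the libraries labelled SphK1 -/-. The control libraries nearly coincided and both others lay well below them. Fads2 fell by 39.2% (log2 fold change -0.72 ± 0.13 SE, adjusted p = 0.00939). The adjusted p was above 0.05 when SphK1 -/- 1 was left out (0.0665) and in the fit of single-copy genes (0.0884, log2 fold change -0.68), within a range of 7.11e-05 to 0.0884 over 14 alternatives.

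Fads1, the delta-5 desaturase that acts later on the same chains, and Fads3, a relative that acts on sphingoid bases, flank Fads2 on chromosome 19, at chr19:10182888-10196877 and chr19:10041569-10060110. Fads1 stood at 99.7, 93.5, 70.6 and 76.4 CPM, without overlap, and missed the threshold (-0.40 ± 0.11 SE, adjusted p = 0.085). It passed with DESeq2 (adjusted p = 0.0437) and with library totals alone (0.00732), within a range of 0.00732 to 0.555. Fads3 was scarce, at 87, 76, 57 and 48 counts (-0.61 ± 0.33 SE, adjusted p = 0.464). Per exonic base, Fads2 was read at 0.964 and 1.03 times the level of Fads1 in control and at 0.742 and 0.849 times in the libraries labelled SphK1 -/-. All 3 neighbours were thus lower in each library labelled SphK1 -/-, with Fads2 past the threshold and the others not.

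Scd1 and Scd2 encode stearoyl-CoA desaturases, which turn stearate and palmitate into the monounsaturated oleate and palmitoleate, and both lie on chromosome 19 (Scd1 chr19:44394455-44407879, Scd2 chr19:44293674-44306864). Per kilobase of exon Scd2 was the most abundant member, at a mean of 556.6 CPM per kb in control and 418.1 in the other group, ahead of Acly at 132.0 and 109.7. Scd1 stood at 45.3 and 30.6 CPM per kb.

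Scd1 was read at 216.6 and 221.4 CPM in control and at 162.8 and 132.3 CPM in the libraries labelled SphK1 -/-. Scd1 fell by 32.7% (log2 fold change -0.57 ± 0.13 SE, adjusted p = 0.032), with no overlap. It no longer passed when control 1 (adjusted p = 0.107), control 2 (0.0805) or SphK1 -/- 2 (0.204) was left out, nor with a minimum count of 50 (0.0554), within a range of 0.00172 to 0.204 over 13 alternatives.

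Scd2 was read at 2960, 3112, 2216 and 2346 CPM, which did not overlap either. Its difference missed the threshold (-0.41 ± 0.14 SE, adjusted p = 0.171) but passed it with DESeq2 (adjusted p = 0.00554) and with library totals alone (0.0283), within a range of 0.00554 to 0.85. Scd1 counts were 0.0732, 0.0711, 0.0735 and 0.0564 of Scd2 counts, so the pair kept its proportion in 3 libraries and Scd1 was relatively lower in SphK1 -/- 2.

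Scd1 shares 8.55% of its words with other genes and Scd2 6.51%, mostly with each other and with Scd3 and Scd4, which were nearly silent here (22, 28, 18 and 26 counts for Scd3 and 17, 11, 15 and 11 for Scd4). The coding sequences of Scd1 and Scd2 are 90.4% identical over 1068 bases. The stretch below, coding bases 952 to 1041 of Scd1 and 961 to 1050 of Scd2, is shown because its 9 differing bases, in capitals, lie along most of its length, unlike those of the Acaca pair.
Scd1: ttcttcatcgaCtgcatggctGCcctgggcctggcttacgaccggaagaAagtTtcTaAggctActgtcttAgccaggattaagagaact
Scd2: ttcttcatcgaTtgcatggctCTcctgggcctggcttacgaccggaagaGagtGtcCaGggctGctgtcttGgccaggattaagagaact

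**Figure D4:**
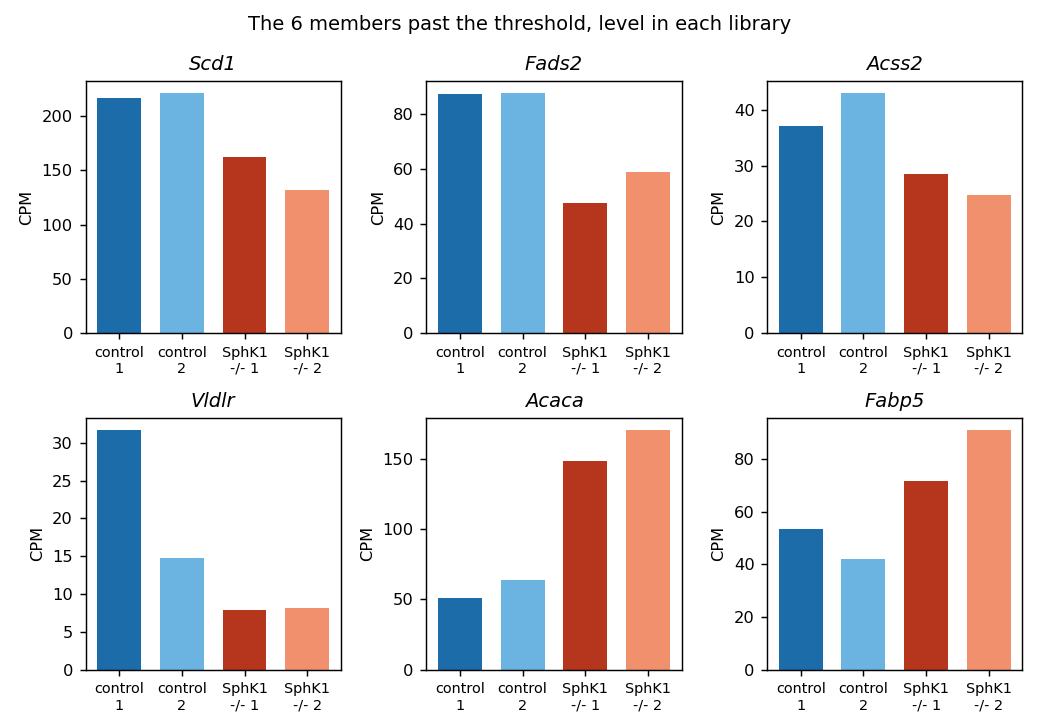
Level of the 6 members past the threshold in each library, in TMM-scaled CPM, 1 bar per library and each axis starting at 0. Scd1, Fads2, Acss2 and Vldlr are lower in both libraries labelled SphK1 -/-, Acaca and Fabp5 are higher, and control 1 stands apart from control 2 for Vldlr (31.7 against 14.7 CPM).

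The 5 tested genes that attach fatty acids to glycerol gave no call with edgeR, DESeq2 or limma-voom and no unadjusted p under 0.05 with edgeR, and in each of them the groups overlapped. Gpam, the mitochondrial acyltransferase that starts the route, stood at 21.3, 25.6, 19.7 and 23.1 CPM. Agpat2 and Agpat3, which add the next chain, had log2 fold changes of -0.06 (95% interval -0.39 to 0.28) and 0.08 (-0.18 to 0.34). Lpin1 and Lpin2, the phosphatases that make diacylglycerol, had values of -0.12 (-0.57 to 0.34) and -0.12 (-0.42 to 0.18). Lpin1 was uneven within control, at 85.0 and 135.6 CPM, with the other group between them at 107.2 and 96.5 CPM. Mogat1, a monoacylglycerol acyltransferase, had 1, 1, 0 and 1 counts and was not tested.

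Vldlr, on chromosome 19 (chr19:27216484-27254231, plus strand), encodes the receptor that takes up very low density lipoprotein. It was read at 31.7 and 14.7 CPM in control and at 7.94 and 8.20 CPM in the libraries labelled SphK1 -/-. The control libraries differed more than 2-fold from each other, and both libraries labelled SphK1 -/- lay below the lower one. Vldlr fell by 65.3% (log2 fold change -1.53 ± 0.32 SE, adjusted p = 0.0211), the largest fall of any member past the threshold. The size rests on control 1, without which the log2 fold change was -0.84 (adjusted p = 0.046). It did not pass with limma-voom (0.0693), a robust fit (0.122) or single-copy genes alone (0.162), within a range of 3.04e-05 to 0.162 over 14 alternatives.

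Fabp5, on chromosome 3 (chr3:10012548-10016607, plus strand), encodes a fatty acid binding protein of epidermis that tissue-resident memory T cells also use. It was read at 53.4 and 41.9 CPM in control and at 71.8 and 91.1 CPM in the libraries labelled SphK1 -/-, without overlap. Fabp5 rose 1.71-fold (log2 fold change 0.77 ± 0.16 SE, adjusted p = 0.02). Omitting control 2 (adjusted p = 0.0642) or SphK1 -/- 2 (0.0732), or scaling by library totals (0.0509), took it past 0.05, within a range of 0.000388 to 0.0732 over 13 alternatives. Fabp5 shares 33.4% of its words with other genes, 27.6% with the processed pseudogene Gm6166 on chromosome 9 and 17.2% with Gm14328, neither of which was analysed here. Over 407 bases, Fabp5 and Gm6166 differ at 5 and are 98.8% identical. Bases 144 to 233 of both are shown for the same reason as those of Acaca, with the differing base in capitals.
Fabp5: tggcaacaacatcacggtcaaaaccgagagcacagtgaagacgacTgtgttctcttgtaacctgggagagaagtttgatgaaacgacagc
Gm6166: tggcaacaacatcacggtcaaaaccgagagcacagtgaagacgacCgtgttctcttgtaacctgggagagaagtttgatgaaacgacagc

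Slc27a1 and Slc27a4 encode transport proteins that also activate fatty acids to their CoA esters. Slc27a1 stood at 12.9, 12.9, 11.9 and 11.1 CPM (-0.17, adjusted p = 0.722) and Slc27a4 at 30.8, 26.5, 25.2 and 22.6 CPM (-0.26, adjusted p = 0.48). Cd36, the scavenger receptor that takes up long chains, was scarce at 1.96, 2.05, 1.77 and 1.89 CPM (-0.13, adjusted p = 0.885). Lpl, the lipase that frees fatty acids from lipoproteins, had 1, 9, 19 and 11 counts. Fabp4, the binding protein of fat cells and macrophages, had 0, 0, 1 and 0, and neither was tested in the fit of all genes. Lpl, though scarce, lay above control without overlap. It was tested in the fit of single-copy genes and did not pass there.

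Cells other than T cells can carry transcripts of uptake genes, and the sums of some of their marker lists differed between the groups. Each count of markers called higher stands beside 6% of all genes tested. Of 9 macrophage and monocyte markers, 4 were tested and 1 (Cd68) was called higher. The list summed to 9.04 and 11.1 CPM in control and to 24.8 and 15.7 CPM in the libraries labelled SphK1 -/-. Cd68 alone supplied most of each sum, at 7.3, 9.5, 22.2 and 13.2 CPM. Lyz2 and Cd14 lay above control without being called, and Csf1r was level at 17, 17, 17 and 18 counts. Fcgr1 had 0, 0, 1 and 0 counts and C1qa had 0, 0, 1 and 2. Of 6 dendritic cell markers, 4 were tested and 1 (Flt3) was called higher, and the sums were 2.77 and 3.65 against 9.49 and 6.07 CPM. Itgax and Zbtb46 lay above control without being called, and Xcr1 overlapped between the groups. Clec9a and Siglech were too scarce to test, and Siglech went the other way, at 5, 10, 2 and 1 counts. Of 5 B cell markers, 1 (Cd79a) was called higher, and the sums were 135.7 and 142.3 against 299.5 and 144.3 CPM, high in SphK1 -/- 1 alone. The 6 natural killer cell markers, some of which activated T cells also express, summed to 380.4 and 349.6 against 466.4 and 377.7 CPM, with Klra8 and Klra4 at 0 throughout. Of these markers 4 were tested and none was called. Nkg7 supplied most of each sum, at 334.9, 319.1, 397.4 and 334.5 CPM. Ncr1 (0.66, 0.76, 1.85 and 1.38 CPM) and Klrb1c (4.30, 3.59, 9.34 and 5.54 CPM) lay above control. Eomes and Nkg7 overlapped between the groups. Adipoq, the defining transcript of fat cells, was at 0 in 3 libraries and at 2 counts in SphK1 -/- 1, and the list of 6 fat and endothelial markers, nearly all of it Pecam1, summed to 54.2, 59.5, 64.6 and 57.9 CPM. The part of these cells in the member values was not tested.

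Of 63 other listed genes of the same pathway, 59 were found in the table and 48 were tested. Of these, 1 was called higher and 2 lower, beside 6% and 0.752% of all genes. Their median log2 fold change was -0.10, beside -0.02 for all genes and -0.21 for the members. Among 20 genes of SREBP, LXR and AMPK control, 14 had a negative value, beside 53.8% of all genes, and 1 was called. This was Usf2, an E-box factor that drives Fasn in liver, read at 68.9, 62.8, 97.9 and 97.8 CPM (0.57 ± 0.11 SE, adjusted p = 0.0134), which shares 11.2% of its words with other genes. Among the 794 tested genes that share over 10% and up to 30% of their words, 27.8% were called higher. Insig1, which holds the SREBPs in the endoplasmic reticulum, stood at 142.5, 127.0, 151.4 and 157.0 CPM (0.19, adjusted p = 0.508).

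Of the genes named in the lists but not among the members, both that were called lower were scarce. Lpin3, the third lipin, had 47 and 46 counts in control and 5 and 5 in the libraries labelled SphK1 -/- (-3.16 ± 0.47 SE, adjusted p = 0.00303), and among single-copy genes it stayed past the threshold (adjusted p = 0.0353). Fads6, a relative of the FADS desaturases, had 19 and 31 counts against 1 and 2 (adjusted p = 0.0085), but did not pass among single-copy genes (adjusted p = 0.067). Its ratio was 0.061 with an exact 95% counting interval of 0.0122 to 0.189, which covers counting error only. The other 8 tested genes of elongation and desaturation and the other 8 of glycerolipid assembly were not called. Of 10 tested uptake genes, 6 had a positive value and none was called with edgeR, DESeq2 or limma-voom, while Scarb1, a lipoprotein receptor, had an unadjusted p under 0.05 (log2 fold change -0.36, adjusted p = 0.11). Slc27a2, a transport protein of liver and kidney, had 70 counts in control 2 and 4, 1 and 0 elsewhere and was not tested.

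Promoter sequence was examined because members of a role lay lower together. RefSeq windows (GRCm38.p6) from 250 bases before to 50 after a gene's start were at hand for 26 members, in 37 windows. Motifs were searched on both strands. No window was at hand for Scd1, Scd2, Fads1, Fabp4, Fabp5 and Lpl, so of the desaturases only Fads2 and Fads3 were searched. These RefSeq starts can differ from the GENCODE gene ends given above, and for Acss2 and Fads2 they lie inside the GENCODE gene. Some windows lie far inside it. The only Acaca window is at chr11:84195188-84195487, in a gene from 84129672. The only Acacb window is at chr5:114165268-114165567, in a gene from 114146535. The only Cd36 window is at chr5:17835847-17836146, in a minus-strand gene that begins at 17888801. The Mlxipl window with the sterol element below is at chr5:135106641-135106940, in a gene from 135089890. The sterol regulatory element TCACNCCAC occurred in 1 of 37 member windows (Mlxipl), or 2.7%, beside 1.24% of 32851 windows of the same length. The E-box CACGTG occurred in 5 (13.5%, beside 7.15%), CCAAT in 20 (54.1%, beside 37.4%) and the GC box GGGCGG in 21 (56.8%, beside 35.7%). None of these motifs lies within another, and a match describes letters only.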

How the data were processed

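The authors deposited a table of raw gene counts for 4 libraries. The submitters' processing notes list HTSeq 0.6.1p1, TopHat2 2.0.13, DESeq2 1.14.1, cutadapt 1.11 and genome GRCm38, with no roles given. The annotation, strand setting and treatment of multiply fitting reads are not given in the sources used here. Of 23419 entries, 720 without a name (1.13% and 1.17% of control counts, 0 otherwise) and 27 with a date for a name (0.261% to 0.312%) were left out. Why unnamed entries held counts in control alone was not tested. Any difference between the groups in how counts were made cannot be told apart from the genotype label. Libraries of a group differed beyond sampling noise (chi-square per gene 48.4 and 31.4). Genes were tested in R 4.3.3 with edgeR 4.0.16 (TMM, filterByExpr with minimum count 10, quasi-likelihood F test, p adjusted by Benjamini-Hochberg and called under 0.05). On simulated counts with known changes, 76% of 2-fold and 94% of 4-fold changes were recovered. DESeq2 1.42.0 and limma 3.58.1 were alternatives. Shared 30-base words were computed on GENCODE M21 transcripts. Members and lists were chosen with earlier results of these data known, so no list was tested. Every member was given, those past the threshold under any setting with full statistics, and other pathway genes if called or as a reference for a member.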

Additional observations from a re-analysis of the deposited data

How the results depend on the processing

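Counts of members higher and lower (2 and 4), of all genes higher and lower (765 and 96) and the member median (-0.21) were recomputed under 14 alternatives. With library totals alone they were 1 and 11 members, 652 and 1432 genes and a median of -0.44, and the cause was not tested. A minimum count of 50 gave 2 members lower, 61 genes lower and a median of -0.16, with fewer genes tested. Among single-copy genes the counts were 0 and 0 members and 55 and 9 genes, with a median of -0.13, from fewer genes and without Acaca, Fabp5, Scd1 and Acss2. Leaving out 1 library at a time gave 1 to 2 members higher, 2 to 3 lower, 645 to 825 genes higher, 87 to 230 lower and medians from -0.27 to -0.19, with the lone library of a group assumed to vary like the others. The count of 2 lower members arose without control 2, SphK1 -/- 1 or SphK1 -/- 2, that of 1 higher member without control 2 or SphK1 -/- 2, and 230 lower genes without control 2. The libraries' replicate numbers share only a number (correlation of same-numbered deviations -0.05, with 2 pairs), and the replicate block kept 2 members higher and 4 lower while 178 genes were lower and 942 higher. DESeq2 called 2 members higher and 6 lower. No called member changed sign under any of these settings. Of the members not called, 9 changed sign under at least 1 setting, among them Lpin1 (-0.38 to 0.27). With 2 libraries a group, the test recovered 76% of simulated 2-fold changes in genes with a mean of over 50 counts. Smaller changes may therefore be missed, and the simulation did not cover changes in scarcer genes such as Mlxipl and Me1. The 4 members not tested had at most 19 counts in any library.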
